A study of Chlamydomonas reinhardtii with 4 samples.

Results

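The green alga Chlamydomonas reinhardtii was exposed to silver nanoparticles (AgNPs) and its mRNA was compared with that of an unexposed culture after 12 h. The wild-type strain FACHB-1121 was grown in TAP, a medium that supplies acetate, at 25 °C with agitation and under light. The AgNP groups received 0.5 mg/L AgNPs and the controls, labelled CK, none. The study has 4 libraries, 1 each for the control and the AgNP culture at 2 h and at 12 h, and the 2 libraries of 12 h are compared here. With 1 library per group no difference has a replicate check, so sizes are given without errors or p-values.

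Levels are FPKM, mapped fragments scaled to transcript length and library size. Of 17741 genes in the tables, 3266 averaged at least 5 FPKM in the 12 h libraries and were compared, and 1144 of these have a gene symbol. They held 98.8% of the FPKM of the control and 99.2% of that of the AgNP library. The FPKM of all genes summed to 1143199 in the control and 1663726 in the AgNP library, and the median gene stood 1.38-fold higher with AgNPs (0.47 on the log2 scale). Ratios are therefore log2 ratios of FPKM + 1, AgNPs over control, minus this median shift, and are called centred: 0 is the median gene, and "higher" and "lower" are relative to it. A gene is counted as higher or lower when it stood at least 2-fold from the median gene. The number of sequenced fragments is unknown. The spacing of the lowest FPKM values would put the depth of the AgNP library at about 0.633 of that of the control. This holds only if the FPKM of each library were divided by its own depth, and the scaling between libraries is not stated.

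Silver ions resemble copper ions in charge and chemistry and can enter cells by copper transporters. Chlamydomonas answers a lack of copper by replacing plastocyanin, the copper protein that carries electrons to photosystem I, with the heme protein cytochrome c6. The transcription factor CRR1 drives this program, which also includes the ferredoxin FDX5, copper transporters and enzymes of tetrapyrrole synthesis. Truncated hemoglobins, peroxiredoxins and thiol enzymes belong to the alga's redox and nitric oxide chemistry.

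At 12 h, 95 genes were higher with AgNPs, 2.91% of those compared, and 166 were lower, 5.08%. Counts in the gene lists below are to be read beside these shares. Of the higher genes 28, THB1 among them, had under 5 FPKM in the control. Of the lower genes 46, UBQ1 and FAP113 among them, had under 5 FPKM with AgNPs. These passed the level filter only through the library where they were high. Of all 3266 compared genes, 287 had under 5 FPKM in the control and 103 with AgNPs. The middle of the distribution was narrow, with 25th and 75th percentiles at -0.43 and 0.40. Of the higher genes 16 have a symbol and 79 have none, and of the lower genes 79 have a symbol and 87 have none. At least 4-fold differences were seen in 11 higher genes, 4 of them with a symbol (CYC6, FDX5, THB1 and PHC15), and in 1 lower gene. The higher genes had a median of 11.3 FPKM in the control and 45.1 FPKM with AgNPs, and the lower genes 11.9 and 6.91 FPKM. On the deposited scale, without centring, 566 genes stood at least 2-fold higher and 10 lower, so the balance of higher to lower genes depends on the scaling.

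**Figure D1:**
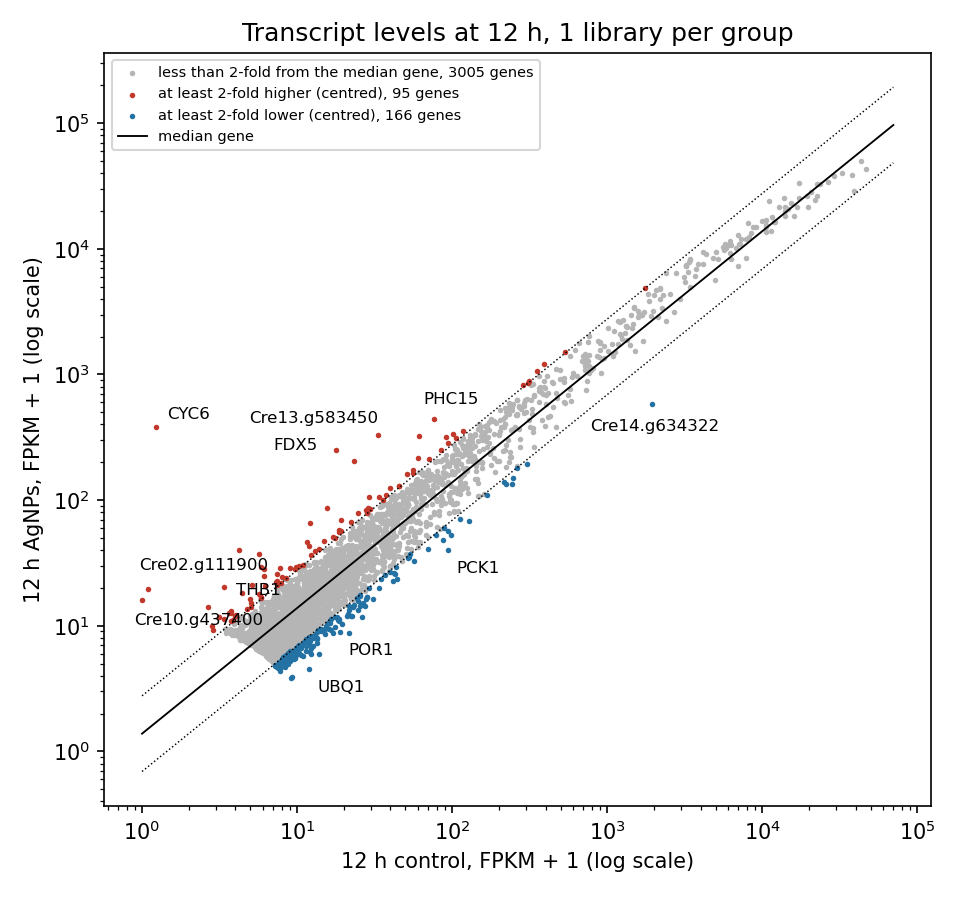
Level of each of the 3266 compared genes in the 12 h control (x axis) and the 12 h AgNP library (y axis), both as FPKM + 1 on log scales. The solid line is the median gene and the dotted lines lie 2-fold above and below it, with 95 genes in red and 166 in blue outside them. CYC6 lies farthest above the line.

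The copper genes held the gene farthest from the median. CYC6, which encodes cytochrome c6 (Cre16.g651050, chromosome 16, 1238558-1240109, gene models of version 5.5), stood at 0.236 FPKM in the control library of 12 h and 380 FPKM with AgNPs. The 2 h control listed it at 0 and the 2 h AgNP library at 339 FPKM. Both AgNP libraries were thus high and both controls at or near 0. Its centred ratio at 12 h was 7.80, and between 5.84 and 9.64 with a pseudocount of 5 or 0.1, since the control level is so low.

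FDX5, a ferredoxin known to accumulate without copper or oxygen (Cre17.g700950, chromosome 17, 704737-706717), stood at 16.8 FPKM in the control library of 12 h and 251 FPKM with AgNPs, a centred ratio of 3.36. At 2 h it stood at 11.05 FPKM in the control and 1199 FPKM with AgNPs, a ratio of 6.13. Both AgNP libraries exceeded both controls, and the AgNP library of 2 h was the higher of the pair.

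The other copper genes did not stand with these at 12 h. Of the 16 genes of the copper list, 9 were compared, 2 were higher and 2 lower, and their median centred ratio was 0.14. Of all compared genes 2.91% were higher and 5.08% lower. CRR1, the regulator of the program, stood at 13.7 FPKM in the control and 8.30 FPKM with AgNPs, a ratio of -1.13. CTH1, the copper-replete form of the cyclase of chlorophyll synthesis, stood at 24.5 and 16.4 FPKM, a ratio of -1.02. After removal of a trend with gene span, described further on, neither passed the 2-fold line, with ratios of -0.60 for CRR1 and -0.99 for CTH1. The counterpart of CTH1, CRD1, known to accumulate without copper, stood at 36.1 and 45.9 FPKM at 12 h, a ratio of -0.13. The 2 h pair had 68.6 and 207 FPKM of CRD1, a ratio of 1.07.

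PCY1, the gene of plastocyanin, stood at 7153 FPKM in the control library of 12 h and 10938 FPKM with AgNPs, a ratio of 0.14. ATX1, a copper chaperone, had 34.1 and 92.9 FPKM, a ratio of 0.95 just under the 2-fold line. COX17, a copper chaperone of cytochrome oxidase, had a ratio of -0.13 and CGL78 one of 0.31. The copper transporter genes CTR1, CTR2 and CTR3 lay under the level filter. CTR2 had 1.39 FPKM in the control library of 12 h and 4.61 FPKM with AgNPs, against 1.81 and 14.6 FPKM at 2 h. CTR1 had 1.94 and 2.24 FPKM and CTR3 2.08 and 2.78 FPKM at 12 h. At 2 h CTR1 had 2.61 and 7.71 FPKM and CTR3 3.11 and 7.74 FPKM. CPX1, the coproporphyrinogen oxidase gene of the program, had 5.41 FPKM in the control library of 12 h and 3.23 FPKM with AgNPs, and was not compared. At 2 h CPX1 had 55.8 FPKM in the control and 76.4 FPKM with AgNPs.

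Ferredoxins carry electrons from photosystem I to many enzymes. Of 8 genes of ferredoxins and their reductases, 4 were compared, 2 were higher and none lower, and the median was 0.81. FDX4 (Cre07.g334800) stood at 18.1 FPKM in the control library of 12 h and 56.2 FPKM with AgNPs, a ratio of 1.11. PETF, the main photosynthetic ferredoxin, had 3310 and 6549 FPKM, a ratio of 0.52, and FNR1, the ferredoxin-NADP reductase, 199.9 and 203.3 FPKM, a ratio of -0.44.

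THB1, a truncated hemoglobin (Cre14.g615400, chromosome 14, 1130388-1132606), stood at 2.36 FPKM in the control library of 12 h and 19.3 FPKM with AgNPs, a centred ratio of 2.13. The 2 h libraries had 1.11 and 8.98 FPKM, a ratio of 1.73. Both AgNP libraries exceeded both controls. The other 3 hemoglobin genes were not compared. THB2 was listed at 0 in all 4 libraries, and THB3 had 2.66 FPKM in the control library of 12 h and 2.87 FPKM with AgNPs. THB4 went the other way, with 2.05 FPKM in the control library of 12 h and 1.39 FPKM with AgNPs. At 2 h THB4 had 3.63 FPKM in the control and 1.90 FPKM with AgNPs.

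**Figure D2:**
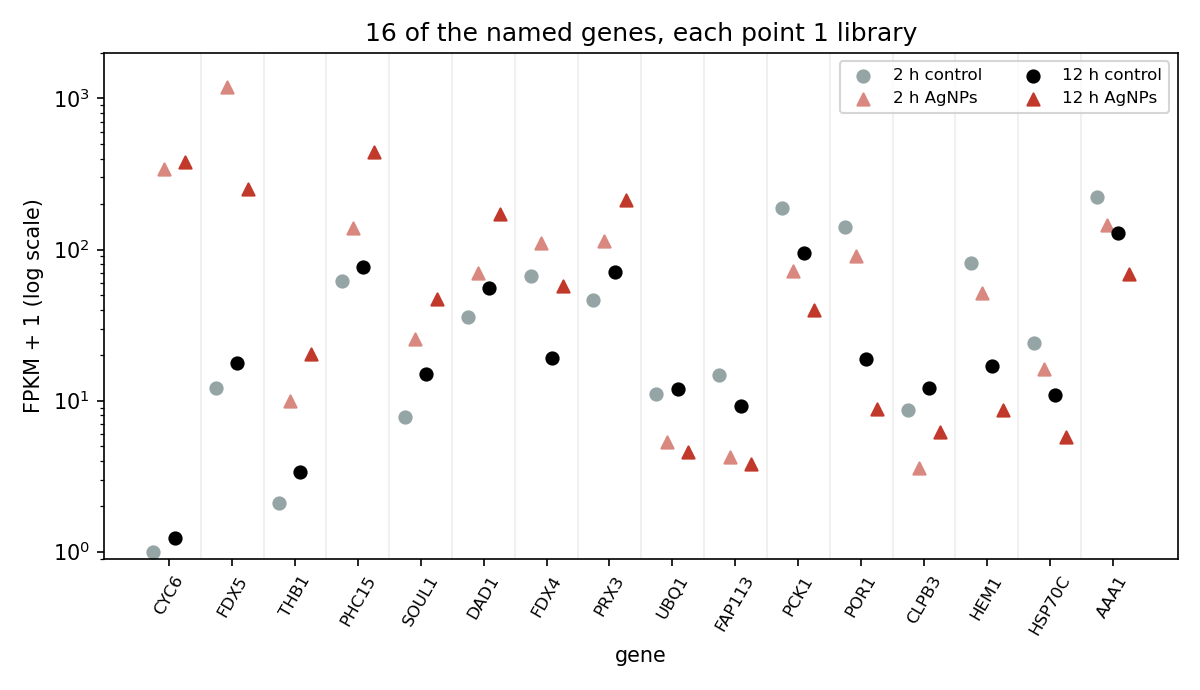
Level of 16 of the named genes in the 4 libraries, as FPKM + 1 on a log scale, 1 point per library (circles are controls, triangles AgNPs, pale 2 h, dark 12 h). CYC6, FDX5, THB1, PHC15, SOUL1, DAD1 and PRX3 have both AgNP points above both control points. UBQ1, FAP113, PCK1 and CLPB3 have both below.

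Heme-binding SOUL proteins and the peroxide enzymes had single higher members. Of 4 SOUL genes 2 were compared. SOUL1 stood at 14.0 FPKM in the control library of 12 h and 46.1 FPKM with AgNPs, a centred ratio of 1.18. SOUL2 stood at 9.20 and 23.2 FPKM, a ratio of 0.78. Under the level filter, SOUL3 had 3.39 FPKM in the control library of 12 h and 3.24 FPKM with AgNPs, and SOUL4 1.45 and 1.91 FPKM. Of 20 peroxide and superoxide detoxification genes, 15 were compared, 1 was higher and none lower, with a median of 0.23. The higher one was PRX3, a peroxiredoxin, at 70.3 FPKM in the control and 210.3 FPKM with AgNPs (ratio 1.10). After removal of the span trend, no member of this list was higher and 1 was lower.

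GPX1 and GPX5, glutathione peroxidase homologs, had ratios of 0.73 and 0.52. FSD1, the iron superoxide dismutase of the chloroplast, stood at 53.3 FPKM in the control and 39.9 FPKM with AgNPs, a ratio of -0.87. CAT1, a catalase, had a ratio of -0.46 and APX1, an ascorbate peroxidase, one of -0.38. Of 26 glutathione, thioredoxin and glutaredoxin genes 20 were compared and none was called in either direction. The glutaredoxin GRX1 had the highest ratio there, 0.72, and the disulfide isomerase PDI5 the lowest, -0.89.

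Genes of entry into the endoplasmic reticulum stood on the higher side. Of 22, 11 were compared, 9 lay above the median gene, 2 were higher and 1 lower, against 2.91% higher and 5.08% lower of all compared genes. The list median was 0.56 (0.26 after the span trend was removed, with none higher and 1 lower). DAD1, a subunit of the enzyme that attaches N-glycans, stood at 54.7 FPKM in the control and 171.7 FPKM with AgNPs, a ratio of 1.16. SPC22, a subunit of signal peptidase, had 8.84 and 28.6 FPKM, a ratio of 1.12, and its partner SPC18 a ratio of 0.94. SEC61A, the channel of the translocon, went the other way, with 28.1 FPKM in the control and 19.0 FPKM with AgNPs, a ratio of -1.01.

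Pherophorins are glycoproteins of the algal cell wall. Of 36 cell wall genes only 3 were compared, 1 higher and 2 lower. PHC15 (Cre09.g396100) stood at 75.2 FPKM in the control library of 12 h and 442 FPKM with AgNPs, a ratio of 2.07, against 60.9 and 137 FPKM at 2 h. PHC3 had 40.4 FPKM in the control library of 12 h and 21.7 FPKM with AgNPs, a ratio of -1.33, and PHC2 33.7 and 22.5 FPKM, a ratio of -1.03.

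Ribosomal protein genes lay slightly above the median gene at 12 h. All 69 cytosolic ribosomal protein genes were compared and none was called, with 50 above the median gene and a list median of 0.23 (0.13 after the span trend was removed). They held 62.8% of all FPKM in the control library of 12 h and 61.1% with AgNPs. At 2 h their median was 0.98 and 30 were higher. The 35 plastid ribosomal protein genes had a median of 0.42 (0.25 after the span trend was removed). Before its removal 1 was higher, PRPL6, at 83.7 FPKM in the control and 248 FPKM with AgNPs (ratio 1.09). This count is close to the 2.91% of all compared genes, and without the span trend the ratio of PRPL6 was 0.79. The 21 compared genes of mitochondrial ribosomes had a median of 0.02.

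Of the photosynthesis lists given here, the antenna genes of photosystem II had the lowest median. The 26 compared genes of the photosystems, the cytochrome b6f complex and the plastid ATP synthase had a median of 0.17 (-0.08 after the span trend was removed), with none called. The 9 antenna genes of photosystem I had a median of 0.29 (0.19 after the span trend was removed), from -0.34 for LHCA4 to 0.72 for LHCA1. The 11 compared antenna genes of photosystem II had a median of -0.42, and 9 lay below the median gene. LHCBM4 stood at 247 FPKM in the control and 148 FPKM with AgNPs, a ratio of -1.20, and LHCBM5 at 215 and 139 FPKM, a ratio of -1.09. LHCBM1, the most abundant of the list, had 8233 and 12359 FPKM, a ratio of 0.12. The LHCBM genes are close copies of each other, so their separate values are uncertain.

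Of 25 heme and chlorophyll genes, 16 were compared, 3 were lower and none higher, against 5.08% lower of all compared genes. Below the median gene lay 14, with a list median of -0.24 (-0.13 after the span trend was removed, with 2 lower). POR1, the light-dependent protochlorophyllide reductase (Cre01.g015350), stood at 18.0 FPKM in the control library of 12 h and 7.86 FPKM with AgNPs, a ratio of -1.57. HEM1, glutamyl-tRNA reductase, the entry enzyme of the pathway, had 15.9 and 7.70 FPKM, a ratio of -1.43. The third lower gene was CTH1, given with the copper genes. The 20 compared genes of the Calvin-Benson cycle had a median of -0.02, and none was called.

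**Figure D3:**
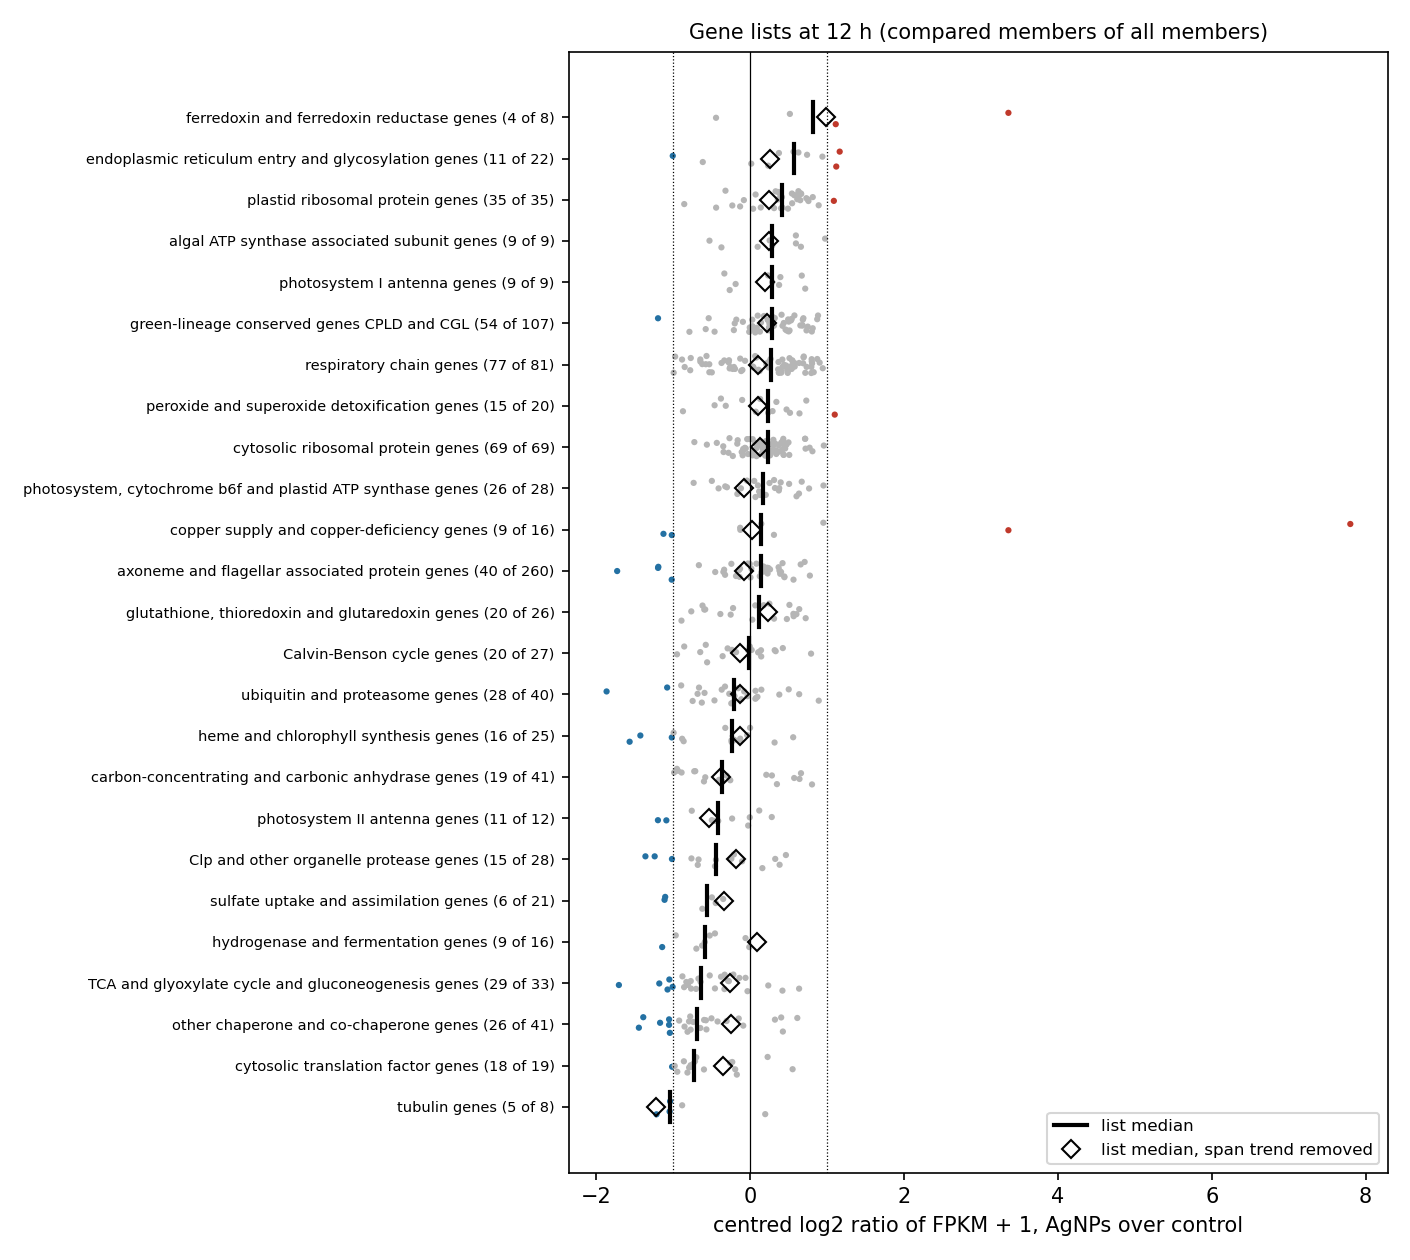
Centred log2 ratio at 12 h of the compared members of gene lists (1 point per gene; in brackets, compared members of all members), with each list's median as a bar and its median after removal of the span trend as a diamond. Dotted lines mark 2-fold. Of the lists drawn, ferredoxin genes have the highest median, 0.81, and tubulin genes the lowest, -1.04.

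Genes of acetate use stood low. TAP medium supplies acetate, which enters metabolism through acetyl-CoA, the glyoxylate cycle and gluconeogenesis. Of 33 genes of these routes and of the TCA cycle, 29 were compared, 5 were lower and none higher, against 5.08% lower of all compared genes. Below the median gene lay 26, and the list median was -0.64 (-0.26 after the span trend was removed, with 1 lower). PCK1, phosphoenolpyruvate carboxykinase, the entry step of gluconeogenesis (Cre02.g141400), stood at 93.5 FPKM in the control library of 12 h and 39.0 FPKM with AgNPs, a ratio of -1.71. The 2 h pair had 187 and 71.0 FPKM, a ratio of -1.90. The others were ACS3, an acetyl-CoA synthetase (-1.18), ACH1, an aconitase (-1.07), CIS2, a citrate synthase (-1.05), and OGD1, a subunit of oxoglutarate dehydrogenase (-1.01). The respiratory chain had a median of 0.27 over 77 compared genes, with none called (0.10 after the span trend was removed, with 1 lower). Its genes were shorter, with a median span of 2352 bp against 4961 bp for the TCA and glyoxylate list. The respiratory list also took in vacuolar ATPase genes.

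Chaperones, proteases and translation factors also stood low. Of 41 chaperone genes 26 were compared, 6 were lower and none higher, against 5.08% lower of all compared genes. Below the median gene lay 22, with a list median of -0.69 (-0.25 after the span trend was removed, with none lower). CLPB3, a plastid disaggregase, stood at 11.1 FPKM in the control and 5.16 FPKM with AgNPs, a ratio of -1.45. HSP70C, of the mitochondrion, had 9.86 and 4.73 FPKM, a ratio of -1.39, and HSP90A, of the cytosol, 21.9 and 13.0 FPKM, a ratio of -1.17. CCT5 and CCT7, subunits of the cytosolic chaperonin, had ratios of -1.04 and -1.05. Of 7 small heat shock genes, 2 were compared: HSP22E had a ratio of -0.09 and HSP22F one of -0.49.

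Of 28 Clp and other organelle protease genes, 15 were compared and 3 were lower, against 5.08% of all compared genes. These were the FtsH-like genes FHL1, FHL2 and FHL4, with FHL2 lowest at -1.36. After the span trend was removed FHL2 stayed past 2-fold at -1.09, FHL1 (-0.65) and FHL4 (-0.58) did not, and the list median went from -0.44 to -0.18. The 28 compared ubiquitin and proteasome genes had a median of -0.21, with 2 lower, against 5.08% of all compared genes. UBQ1 (Cre11.g467567), a ubiquitin gene, stood at 10.99 FPKM in the control library of 12 h and 3.55 FPKM with AgNPs, a ratio of -1.87, the lowest of all genes with a symbol. RPN9, a subunit of the proteasome's regulatory particle, had a ratio of -1.08. Ubiquitin genes share near-identical repeats, so the value of UBQ1 is uncertain.

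The 18 compared cytosolic translation factor genes had a median of -0.73, with 16 below the median gene and 1 lower, EIF6 (-1.01). After the span trend was removed their median was -0.35, with 2 lower. The list of plastid expression factors, drawn by symbol, had 6 compared genes, 3 of them lower. These were EFG1, EFG2 and EFG6, and whether each acts in the plastid was not checked. EFG2 stood at 86.4 FPKM in the control and 47.5 FPKM with AgNPs, a ratio of -1.32. After the span trend was removed EFG2 was the 1 lower gene, at -1.03, and the list median went from -0.95 to -0.50. Of 21 sulfate uptake and assimilation genes 6 were compared and all lay below the median gene. The sulfate transporter SLT3 (-1.11) and the serine acetyltransferase SAT1 (-1.10) were lower, and neither was after the span trend was removed. Of 15 fatty acid and membrane lipid genes 10 were compared, 5 above and 5 below the median gene, with a median of -0.19. None was higher and 3 were lower, against 5.08% lower of all compared genes. With the span trend removed the median was -0.03 with 1 lower. Among the lower, FAD7, a plastid fatty acid desaturase, stood at 11.3 and 5.68 FPKM, a ratio of -1.35 (-1.14 without the span trend). DGD1, which makes a galactolipid of thylakoids, had a ratio of -1.23 (-0.71). ACP1 had the highest ratio of the list, 0.67.

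Tubulin genes had the lowest median of the lists with at least 3 compared members, -1.04 over 5 genes, and 3 of them were lower. TUA1 stood at 51.1 FPKM in the control and 33.9 FPKM with AgNPs, TUB2 at 51.9 and 34.5 FPKM, and TUB1 at 27.4 and 15.9 FPKM. TUA2 had a ratio of -0.88, while TUH1 had one of 0.20. The pairs TUA1 and TUA2, and TUB1 and TUB2, are near-identical copies, so reads may have been split between them. At 2 h the list median was -1.84. Of 260 axoneme and flagella-associated genes 40 were compared and 4 were lower, against 5.08% of all compared genes. Their median was 0.14 (-0.08 after the span trend was removed), against -0.68 at 2 h with 12 lower. FAP113, the lowest of them at 12 h, had 8.19 FPKM in the control and 2.83 FPKM with AgNPs, a ratio of -1.73, and after the span trend was removed it was the 1 lower gene of the list, at -1.01.

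Several of the genes far from the median have no symbol. Cre10.g437400 (chromosome 10, 2632792-2635112) was listed at 0 in both controls and at 15.1 FPKM with AgNPs at 12 h and 22.96 FPKM at 2 h. Cre02.g111900 (chromosome 2, 5941720-5944280) had 0.0889 FPKM in the control library of 12 h and 18.7 FPKM with AgNPs. Cre13.g583450 stood at 32.3 FPKM in the control and 326 FPKM with AgNPs, a ratio of 2.83, against 7.17 and 113 FPKM at 2 h. Both AgNP libraries exceeded both controls for Cre10.g437400, Cre02.g111900 and Cre13.g583450.

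Cre17.g709450, Cre10.g425850 and Cre16.g659300 had ratios of 2.79, 2.67 and 2.23. The only gene at least 4-fold lower was Cre14.g634322 (chromosome 14, 4147306-4150687), with 1954 FPKM in the control library of 12 h and 582 FPKM with AgNPs, a ratio of -2.21. At 2 h it had 1435 and 784 FPKM. Cre08.g374100, Cre09.g403441, Cre01.g050950, Cre02.g077800 and Cre02.g108350 followed, with ratios from -1.78 to -1.51. Cre03.g156450, at 5.67 FPKM with AgNPs and listed at 0 in the control, fell under the mean filter.

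The centred ratio moved with the span of the gene, the distance from start to end of the locus. In 8 groups of about equal size by span, the median was 0.40 for genes of 357 to 1733 bp and -0.54 for genes of 5624 to 43950 bp. The share of genes called higher went from 5.87% to 0.978% and of those called lower from 1.71% to 15.4%. Higher genes had a median span of 2151 bp and lower genes one of 4978 bp, against 3105 bp for all compared genes. The 2 h pair had the same kind of trend, from 0.43 to -0.43. With a smooth trend removed, 73 genes were higher and 82 lower, and these included 50 of the 95 and 60 of the 166. The chaperone and the TCA and glyoxylate lists hold long genes, with median spans of 5080 and 4961 bp, and the part of the span trend in their values cannot be told apart from the AgNP difference. Tubulin genes, with a median span of 2650 bp, had a median of -1.22 after its removal, and the antenna genes of photosystem II, with 2291 bp, one of -0.54.

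**Figure D4:**
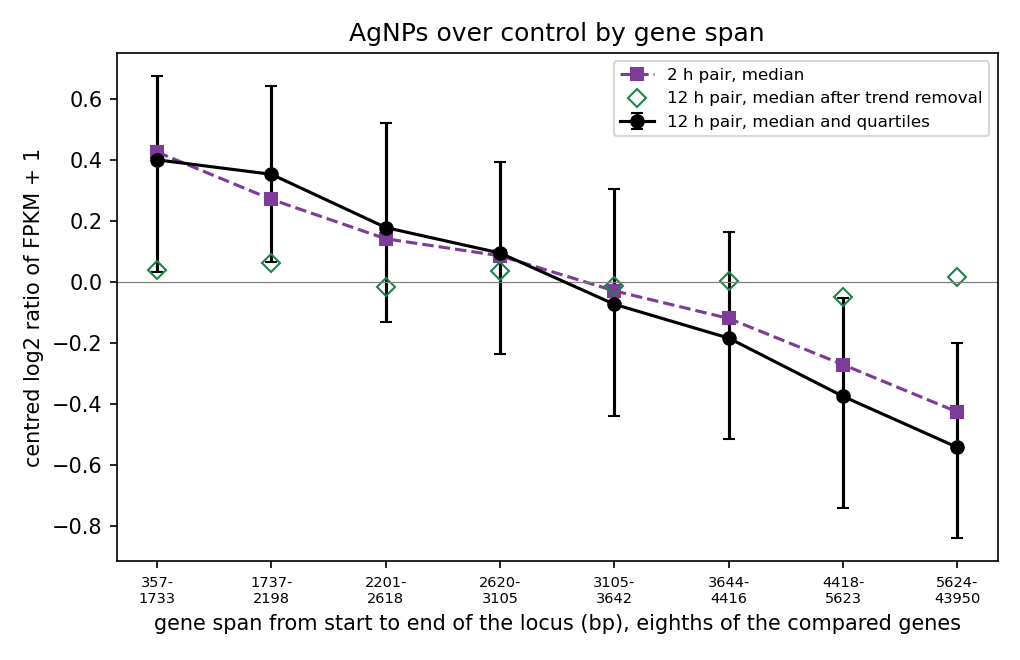
Median centred log2 ratio of AgNPs over control in 8 groups of compared genes ordered by gene span in bp, for the 12 h pair (black, bars are quartiles), the 2 h pair (purple) and the 12 h pair after removal of the trend (green). The 12 h medians go down from 0.40 to -0.54.

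The 2 h pair consists of other libraries, so it shows which differences of 12 h were also present between them. Over the same 3266 genes 160 were higher at 2 h (4.90%) and 214 lower (6.55%). Of the 95 genes higher at 12 h, 87 lay above the median gene at 2 h and 31 were higher, 32.6% of the 95 and 19.4% of the 160. Of the 166 lower genes, 165 lay below it and 89 were lower, 53.6% of the 166 and 41.6% of the 214. No gene was called in opposite directions. With the span trend removed from both pairs, 40 genes were higher and 39 lower at both times. Across genes the centred ratios of both times had a Pearson r of 0.66 (0.61 with the trend removed) and a Spearman rho of 0.69 (0.62). These describe genes of shared libraries, which are not independent replicates, and the trend with span is common to both pairs. Cre14.g634279 is included; the control of 2 h listed it at 0, while the AgNP library of 2 h had 28098 FPKM, the control of 12 h 38828 FPKM and the AgNP library of 12 h 29051 FPKM.

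**Figure D5:**
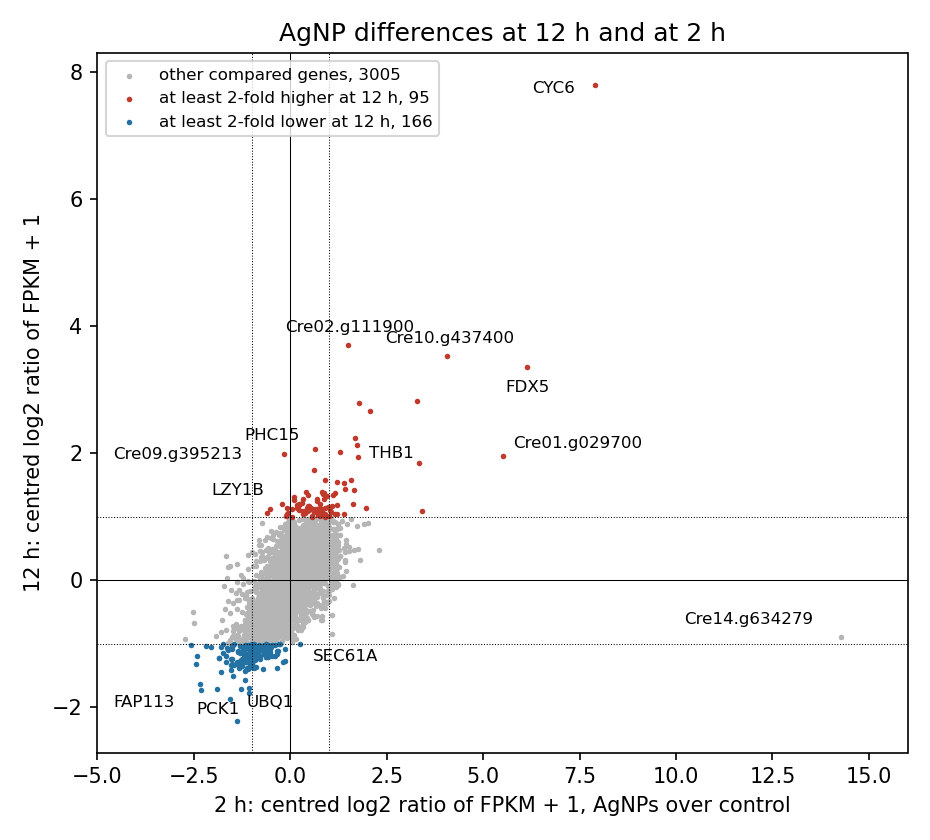
Centred log2 ratio of AgNPs over control at 2 h (x axis) and 12 h (y axis) for the 3266 compared genes, with those called at 12 h in red and blue and 2-fold marked by dotted lines. CYC6 lies far above 0 on both axes, and Cre14.g634279, at the far right, was listed at 0 in the 2 h control.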

How the data were processed

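Total RNA of algal cultures was made into mRNA libraries with an Illumina kit and sequenced on an Illumina HiSeq, per the labels' protocols and the series' design text. The authors deposited 1 table per library with FPKM per gene, per the file headers; Cuffdiff is named without a version in the submitters' processing notes, and no source used here gives the aligner, genome build or scaling between libraries. Gene IDs carry version 5.5 of the gene models; 17738 IDs were found in the RefSeq table of assembly Chlamydomonas_reinhardtii_v5.5, and 17558 starts were equal after adding 1, so coordinates are 1-based.

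Tables were joined on gene ID and genes averaging 5 FPKM or more in both 12 h libraries together were kept. The log2 ratio of FPKM + 1 was centred on its median over these genes, and a count took ratios of at least 2-fold. A lowess curve (fraction 0.5) of the ratio on log2 gene span gave the trend-removed values. The estimate of relative depth came from 1232 genes under 0.2 FPKM in both libraries, of which only 14.6% shared 1 spacing within 0.05 log2. Strand use in counting is not given. No test was made, as each group has 1 library; nothing says how many cultures a library came from. The members and the 46 gene lists, chosen by symbol, were selected with earlier results of these data known, and 11 more lists were added after the data were seen. Symbol patterns took some other genes into lists: Golgi COG genes into metal transport, opsin genes into vesicle transport. The EFG genes entered the plastid expression list by symbol alone.

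Named genes were the 15 highest and 15 lowest with a symbol and up to 4 per list with the largest absolute ratio. They also took in up to 6 highest and 6 lowest without a symbol. Those listed at 0 in 1 library and at 5 FPKM or more in the other were named too. Any member of the copper, hemoglobin, ferredoxin, SOUL and antioxidant lists could be named. Other list members were chosen after their values were seen, as were Cre14.g634279, Cre09.g395213, Cre01.g029700, Cre11.g478700 and Cre11.g478750. Python 3.11.15, numpy 2.4.6, pandas 2.3.3 and statsmodels 0.14.6 were used, and the scripts were tested on simulated data. Scaling, pseudocount, filter, threshold and span trend were varied.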

Additional observations from a re-analysis of the deposited data

Results flagged for a closer look

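The following named genes stood on opposite sides of the median gene at 12 h and 2 h and at least 2-fold from it at one of these times, and no difference between times was tested because each group has 1 library. LZY1B had centred ratios of 1.14 (12 h) and -0.08 (2 h), and the first minus the second was 1.23, with 3.01 FPKM in the 12 h control and 11.2 FPKM with AgNPs. RPB11, a subunit of RNA polymerase II, had ratios of 1.05 and -0.07, a difference of 1.12. SEC61A had ratios of -1.01 and 0.26, a difference of -1.27. CRD1 had ratios of -0.13 and 1.07, a difference of -1.20; with the span trend removed they were 0.15 and 1.28, on the same side. The other genes stayed on opposite sides without the trend, with LZY1B at 0.80 and -0.66, RPB11 at 0.67 and -0.47, and SEC61A at -1.07 and 0.20.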

How the results depend on the processing

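The count of 95 higher genes was 566 without centring, 268 with upper quartile scaling, 723 without a level filter, 16 at a mean of at least 20 FPKM, 486 at 1.5-fold and 11 at 4-fold. The count of 166 lower genes was 10, 40, 50, 96, 588 and 1 in the same order, 82 with the span trend removed and 37 with a pseudocount of 5. Without a level filter 15578 genes were compared, and at a mean of at least 20 FPKM 1284, against 3266 in the main comparison. Counts under these filters are thus parts of other totals, and their size cannot be set directly against 95 and 166. Scaling to equal sums gave 79 higher and 170 lower, a pseudocount of 0.1 gave 110 and 216, and a filter over all 4 libraries 99 and 175. The difference in median between the shortest and longest genes, 0.94, ranged from 0.56 without a filter to 1.04 with the filter over 4 libraries. With the span trend removed the median of the fermentation list went from -0.59 to 0.09. None of the 83 named genes past 2-fold changed sign under another scaling, pseudocount or removal of the span trend, while 24 of the 152 within 2-fold did, and neither of the 2 list medians past 2-fold did, while 22 of the 37 within 2-fold did under at least 1 alternative (level filters included). The cause of these shifts was not tested. Dropping the centring moved every ratio by 0.47, too little to change the sign of a ratio past 2-fold. Kept signs are thus little check of the calls, whose counts changed as given above. No paired analysis was possible because the 12 h comparison has 1 library per group; a fit over both times, with times as pairs, would give their mean difference and was not run here. Depth is unknown and limits genes near 5 FPKM most.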

Other observations

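Among lists chosen after the data were seen, glycolysis and starch genes had 16 of 34 compared, 3 lower and none higher, with a median of -0.40 (-0.12 after the span trend was removed, with none lower). PGI1, glucose-6-phosphate isomerase, stood at 23.5 FPKM in the control library of 12 h and 12.4 FPKM with AgNPs, a ratio of -1.35 (-0.86). Amino acid synthesis genes had 36 of 45 compared, 5 lower and none higher, with a median of -0.37 (-0.09, with 3 lower). Of all compared genes 5.08% were lower. Prefoldin subunits, which hand new actin and tubulin to the cytosolic chaperonin, had 5 of 6 compared and a median of 0.54 (0.18), with none called.

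Cre09.g395213 stood at 11.1 FPKM in the control library of 12 h and 65.1 FPKM with AgNPs, and at 1.22 and 1.82 FPKM at 2 h. Cre01.g029700 stood at 59.96 and 325 FPKM at 12 h and at 3.91 and 317 FPKM at 2 h, so its 12 h control was far above its 2 h control. The neighbouring genes Cre11.g478700 and Cre11.g478750 on chromosome 11, 197 bp apart, were both higher at 12 h, with ratios of 1.26 and 1.20.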
